A study of Mus musculus with 90 samples.

Results

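The genes described here are 9 ligand-activated transcription factors and 1 reductase through which the mouse liver senses foreign compounds, sterols, fatty acids and steroids. They were chosen by name and function: Nr1i2 (PXR), Nr1i3 (CAR) and Ahr (AhR) for xenobiotics, Nr1h3 (LXRα) and Nr1h2 (LXRβ) for oxysterols, Rxra (RXRα) as the shared partner, Pparg (PPARγ) for fatty acids, Esr1 (ERα) and Nr3c1 (the glucocorticoid receptor, GR) for steroids, and Por, the reductase that feeds electrons to cytochrome P450 enzymes. All 10 were found among the 24475 genes of each deposited table, and all 10 passed the filter on low counts in both experiments. Messenger RNA of mouse liver was sequenced in 90 libraries, 10 in each of 9 groups. In experiment 1, mice received an adeno-associated virus (AAV8) with a short hairpin RNA for a knockdown (KD) labelled Gcgr KD, Gnas KD, PKA KD or Epac2 KD, and the reference was the group labelled Control. In experiment 2 the groups were Prkar1a KD + Gcgr mAb, Prkar1a KD + Control mAb, Control AAV + Gcgr mAb and Control AAV + Control mAb, in which mAb is an antibody and the Prkar1a knockdown served to activate protein kinase A (PKA). Strain, age, sex, diet, time after injection, vector dose and the hairpin's promoter are not stated in these sources, and the labels do not say which PKA subunit was targeted. They also do not say that the 10 libraries of a group came from separate mice. The p-values therefore measure only the spread between these libraries. The labels name no alternative hairpin for any target, so loss of a target and other effects of its hairpin cannot be told apart.

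Glucagon binds its receptor Gcgr, which acts through the G protein subunit encoded by Gnas to raise cAMP. The cAMP opens PKA by releasing its catalytic subunits from regulatory subunits such as Prkar1a, and it also binds Epac2 (gene Rapgef4), an exchange factor for a small G protein. PXR and CAR pair with RXRα on the promoters of drug-metabolising enzymes, LXRs with RXRα on those of cholesterol export and lipogenesis genes, and PPARγ with RXRα on those of lipid storage genes. AhR pairs instead with ARNT, and GR and ERα bind as dimers of their own kind.

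The promoter windows of 4 genes on which the results turn follow, taken from RefSeq (GRCm38.p6) as 300 bases, 250 before and 50 after an annotated start. Windows were found for 8 of the 10 genes, 13 in all. No window was found for Ahr or Nr3c1. Nr1i2 and Nr1i3 are shown because they moved in opposite directions, Pparg because its fall was the largest, and Nr1h2 because its window alone held the core of a cAMP response element. Capitals mark matches on either strand to TGACG, that core, or to AGGTCA, the core that a nuclear receptor binds; the Nr1i2 and Nr1i3 windows held neither.
Nr1i2, chr16:38294775-38295074, minus strand: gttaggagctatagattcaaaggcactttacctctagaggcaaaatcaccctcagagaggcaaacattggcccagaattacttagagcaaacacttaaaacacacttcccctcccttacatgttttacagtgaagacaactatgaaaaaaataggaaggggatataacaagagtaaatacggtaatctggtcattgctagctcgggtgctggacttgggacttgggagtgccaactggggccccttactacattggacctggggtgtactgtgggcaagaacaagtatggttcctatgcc
Nr1i3, chr1:171213720-171214019, plus strand: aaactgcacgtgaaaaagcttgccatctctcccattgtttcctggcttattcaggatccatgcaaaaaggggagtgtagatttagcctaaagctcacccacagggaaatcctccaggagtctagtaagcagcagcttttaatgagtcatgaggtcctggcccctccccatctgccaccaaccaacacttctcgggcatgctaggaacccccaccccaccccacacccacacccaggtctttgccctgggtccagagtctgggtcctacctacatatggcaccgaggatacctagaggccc
Nr1h2, chr7:44553916-44554215, minus strand: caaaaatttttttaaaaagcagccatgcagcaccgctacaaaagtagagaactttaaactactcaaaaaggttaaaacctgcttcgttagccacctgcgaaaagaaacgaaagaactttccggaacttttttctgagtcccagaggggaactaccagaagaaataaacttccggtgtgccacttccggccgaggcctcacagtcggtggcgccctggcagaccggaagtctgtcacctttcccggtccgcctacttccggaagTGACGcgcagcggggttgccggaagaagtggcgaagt
Pparg, chr6:115362099-115362398, plus strand: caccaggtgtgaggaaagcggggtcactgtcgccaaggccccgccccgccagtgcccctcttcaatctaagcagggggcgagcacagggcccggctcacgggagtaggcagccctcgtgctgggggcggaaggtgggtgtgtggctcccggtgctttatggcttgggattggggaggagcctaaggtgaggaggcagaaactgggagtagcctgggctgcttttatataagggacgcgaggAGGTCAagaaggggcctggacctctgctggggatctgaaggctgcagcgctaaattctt

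In the Nr1h2 window the TGACG match lay 13 bases after the start. Among all 32851 windows of the RefSeq table, 20.8% held TGACG on either strand. The full palindrome TGACGTCA, which contains TGACG on both strands, was in 1.79% of all windows and in none of the 13. The core AGGTCA was in 16.3% of all windows. It was found in 3 of the 13 windows, 2 times at the second Rxra start and once each at the first and second Pparg starts. Pairs of AGGTCA spaced by 1 base (AGGTCANAGGTCA) or 4 bases (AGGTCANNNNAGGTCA), the arrangements associated with PPARγ and with LXR, were in 0.0396% and 0.0152% of all windows and in none of the 13. GCGTG, the core of the AhR response element, was in 32.4% of all windows and, among these genes, in windows of Por, Pparg and Esr1. A match of letters is a description of the window and does not show that a factor binds there.

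Library totals were 20813066 to 33709500 counts in experiment 1 and 8870340 to 19481413 in experiment 2. The targeted genes were lower in the libraries labelled for them: Gcgr averaged 45.7 ± 6.004 CPM in Gcgr KD against 171 ± 22.2 in Control, and Prkar1a 32.1 ± 2.21 CPM in Prkar1a KD + Control mAb against 123 ± 10.9 in Control AAV + Control mAb (SD, n = 10 each). Gnas and Rapgef4 were likewise lower in their own groups, and in PKA KD both Prkaca (11.5 ± 5.14 CPM against 95.6 ± 6.21 in Control) and Prkacb (9.61 ± 2.25 CPM against 40.2 ± 2.84 in Control) were. Hepatocyte markers were abundant in every group, but their sum moved with the Prkar1a knockdown. The 8 markers summed to a median of 54476 CPM in Prkar1a KD + Gcgr mAb and 50394 CPM in Prkar1a KD + Control mAb, against 85072 CPM in Control AAV + Gcgr mAb and 95672 CPM in Control AAV + Control mAb. In bulk liver, fewer cells of a type and less RNA per cell cannot be told apart. One library, Control AAV + Gcgr mAb replicate 2, lay far from its group for 2 of the 10 genes, Nr1i3 and Rxra, and 8 other libraries did so for 1 gene each. Results that change call without one of them are given with and without it.

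Levels are CPM, counts scaled to library size with TMM factors, and changes are log2 fold changes ± SE from edgeR's quasi-likelihood test over all genes of an experiment. A gene is called changed at a Benjamini-Hochberg adjusted p under 0.05. Of the 10 genes, 1 was called in Gcgr KD, against 7.23% of all genes tested, 4 in Gnas KD, against 15.2%, 5 in PKA KD, against 32.4%, and 1 in Epac2 KD, against 4.56%. In experiment 2, Gcgr mAb with Control AAV gave 1 call, against 8.19% of all genes. Prkar1a KD with Control mAb gave 6, against 56.2%, and Prkar1a KD with Gcgr mAb gave 5, against 53.1%. The animals with both interventions, Prkar1a KD + Gcgr mAb, differed from those with neither, Control AAV + Control mAb, in 6 genes, against 50.2% of all genes. The 10 genes are too few for these shares to set them apart from the rest, and what follows concerns which receptors moved, in which direction and how far.

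The target lists are read against the same background, split by direction. Of all genes tested, 2.9% were called higher and 4.33% lower in Gcgr KD, 6.83% and 8.32% in Gnas KD, 17.7% and 14.8% in PKA KD, and 1.82% and 2.74% in Epac2 KD. Gcgr mAb with Control AAV had 2.92% higher and 5.27% lower. Prkar1a KD had 29.3% higher and 26.9% lower with Control mAb, and 26.5% and 26.6% with Gcgr mAb. The median log2 change of all genes lay between -0.01 and 0.02 in every contrast.

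**Figure D1:**
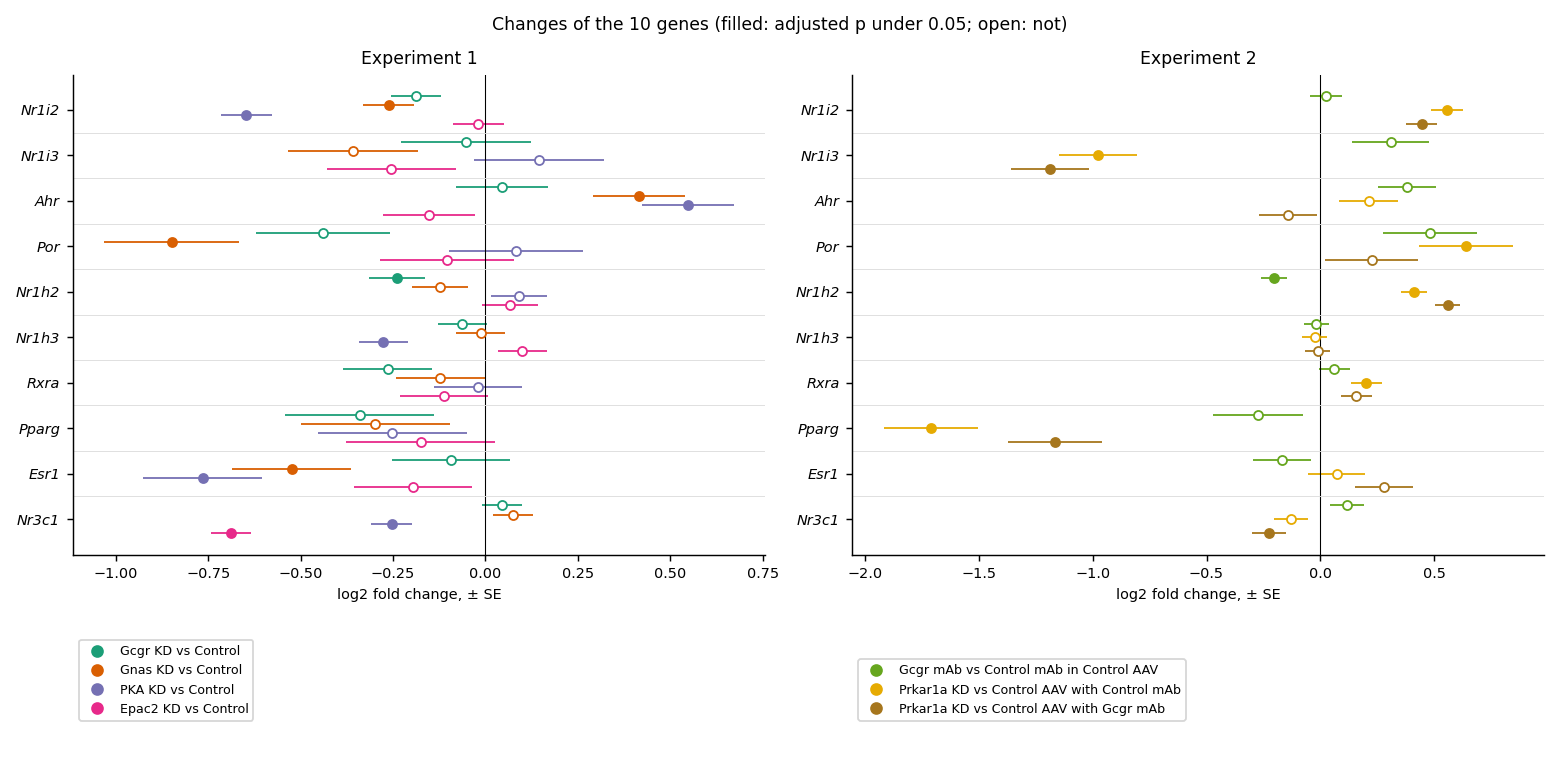
Log2 fold changes (x axis, points with SE bars) of the 10 genes (rows) in the 4 knockdowns of experiment 1 against Control and in 3 contrasts of experiment 2; filled points have an adjusted p under 0.05. Nr1i2 lay at -0.65 in PKA KD and at 0.56 in Prkar1a KD with Control mAb, and Pparg at -1.71 in Prkar1a KD with Control mAb.

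PXR mRNA (Nr1i2) was low where PKA was knocked down and high where Prkar1a was. PXR is the broad sensor of drugs and bile acids in hepatocytes, and its gene spans chr16:38248349-38294849 (GRCm38). In PKA KD the 10 libraries had a lowest, median and highest value of 32.8, 39.2 and 45.3 CPM, in that order here and throughout, against 55.7, 61.1 and 69.7 CPM in Control. The 2 groups did not overlap, which held for 5.34% of all genes in that contrast. Nr1i2 fell by 0.65 ± 0.068 on the log2 scale, a 1.57-fold lower level (edgeR, adjusted p = 8.54e-11). In Gnas KD it had 42.6, 50.6 and 63.7 CPM, overlapping Control, and fell by 0.26 ± 0.068 (edgeR, adjusted p = 0.00549). In Gcgr KD it had 49.3, 52.6 and 61.6 CPM, with 9 of 10 libraries under the Control median. Its change there was -0.19 ± 0.068 and missed the threshold (edgeR, adjusted p = 0.0820). Epac2 KD had 47.3, 59.9 and 74.4 CPM, and the interval of its change, a normal approximation from the SE as elsewhere, was -0.15 to 0.11.

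Ordered by level, Nr1i2 in experiment 1 ran Control, Epac2 KD, Gcgr KD, Gnas KD and PKA KD. Only the last step, PKA KD against Gnas KD, passed the test between neighbours (log2 change -0.38 ± 0.068, edgeR adjusted p = 1.27e-05). That contrast called 6 of the 10 genes, against 34.0% of all genes. In experiment 2, Nr1i2 had 69.8, 80.8 and 99.3 CPM in Prkar1a KD + Gcgr mAb and 74.8, 87.2 and 103 CPM in Prkar1a KD + Control mAb. The groups without the knockdown lay lower, at 49.1, 60.3 and 73.7 CPM in Control AAV + Gcgr mAb and 50.7, 60.4 and 67.3 CPM in Control AAV + Control mAb. With Control mAb, the Prkar1a KD libraries did not overlap their control, as did not 15.1% of all genes, and Nr1i2 rose by 0.56 ± 0.069 (edgeR, adjusted p = 7.96e-09). With Gcgr mAb the groups overlapped, and the rise was 0.44 ± 0.069 (edgeR, adjusted p = 1.03e-06). With Gcgr mAb in Control AAV its change was 0.02 ± 0.069, with an interval of -0.11 to 0.16. Prkar1a KD + Gcgr mAb did not overlap Control AAV + Control mAb either, as did not 10.7% of all genes, and Nr1i2 was higher there by 0.47 ± 0.069 (edgeR, adjusted p = 4.12e-07).

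CAR mRNA (Nr1i3) went the other way under the Prkar1a knockdown and was called in no experiment 1 knockdown against Control. CAR is the receptor through which phenobarbital-like compounds induce Cyp2b genes, and its gene lies at chr1:171213934-171218845. In Prkar1a KD + Gcgr mAb it had 43.8, 51.7 and 76.7 CPM and in Prkar1a KD + Control mAb 38.3, 52.6 and 63.9 CPM. Control AAV + Gcgr mAb had 33.6, 132 and 179 CPM, and Control AAV + Control mAb 72.4, 96.2 and 169 CPM. The value of 33.6 CPM belongs to replicate 2; the other 9 of its group had 114 to 179 CPM. With Control mAb the knockdown and control libraries did not overlap, as did not 15.1% of all genes. Nr1i3 fell by 0.98 ± 0.17 with Control mAb (edgeR, adjusted p = 7.00e-06) and by 1.19 ± 0.17 with Gcgr mAb (edgeR, adjusted p = 2.86e-07). Without that replicate, the fall with Gcgr mAb was 1.31 ± 0.13 (edgeR, adjusted p = 3.41e-11).

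Gcgr mAb in Control AAV gave Nr1i3 a change of 0.31 ± 0.17 (edgeR, adjusted p = 0.267) with all libraries. Without Control AAV + Gcgr mAb replicate 2 the change was 0.42 ± 0.13 (edgeR, adjusted p = 0.0282), so that the call depends on that library. In experiment 1, Nr1i3 varied widely within groups, from 63.7 to 219 CPM in PKA KD alone and from 77.0 to 163 CPM in Control. Its changes against Control were -0.05 ± 0.18 in Gcgr KD, -0.36 ± 0.18 in Gnas KD, 0.14 ± 0.18 in PKA KD and -0.25 ± 0.18 in Epac2 KD. None passed the test (edgeR, lowest adjusted p = 0.172), and the interval in Gnas KD ran from -0.70 to -0.01. Between knockdowns, Nr1i3 was called higher in PKA KD, at 139 ± 48.8 CPM, than in Gnas KD, at 98.1 ± 26.6 CPM (SD). Of the 10 genes, 6 were called between those groups, against 34.0% of all genes. The span of Nr1i3 shares 1044 bases with Tomm40l, which averaged 9.50 and 8.73 CPM in the 2 experiments, and how shared reads were counted is not stated.

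**Figure D2:**
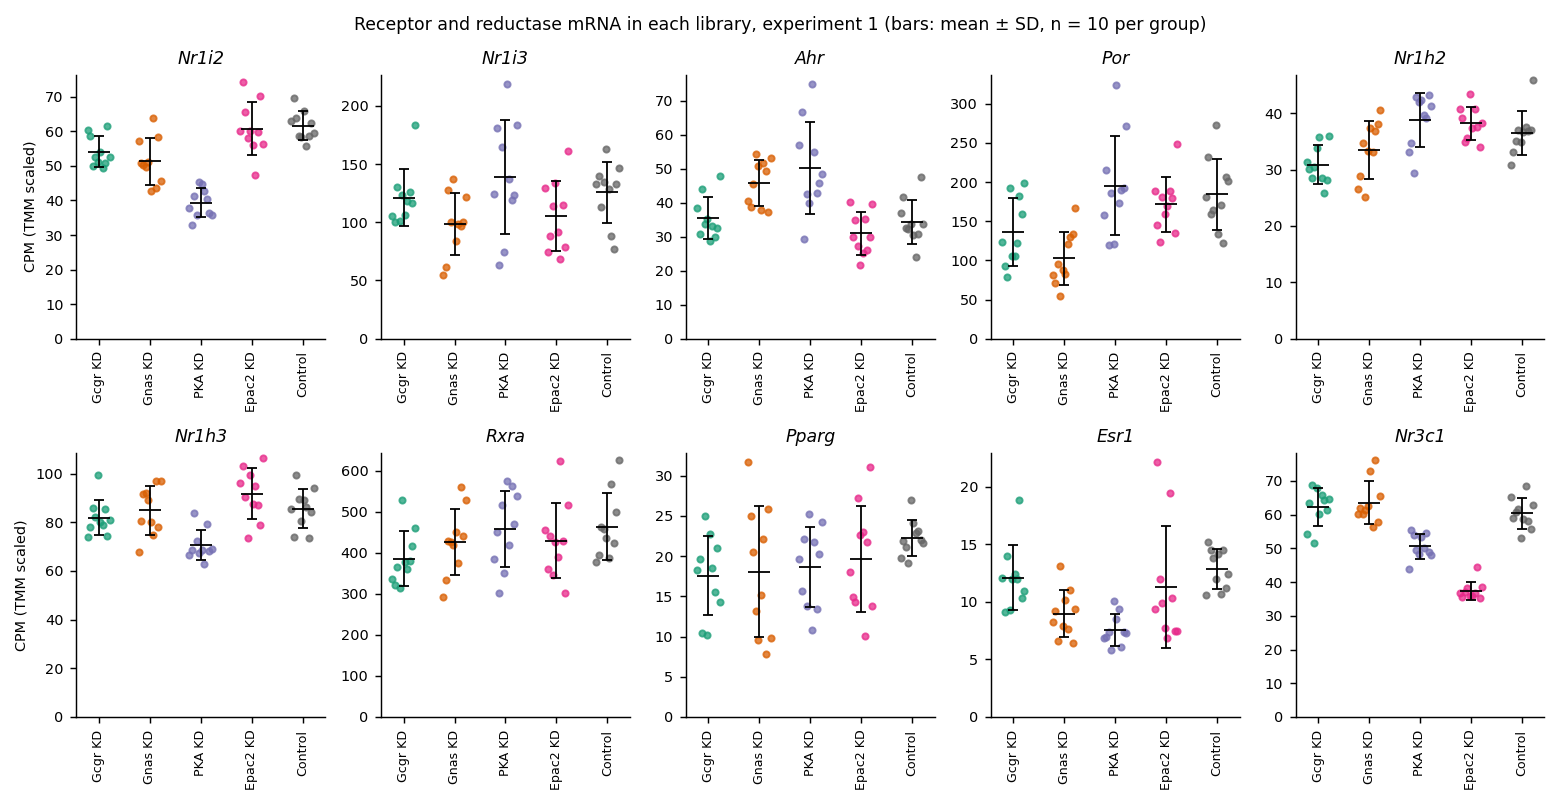
CPM (y axis, from 0) of each gene in every library of experiment 1 by group, with mean ± SD bars (n = 10). The PKA KD libraries of Nr1i2 (32.8 to 45.3 CPM) and the Epac2 KD libraries of Nr3c1 (35.3 to 44.4 CPM) sit below all Control libraries of the same gene.

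**Figure D3:**
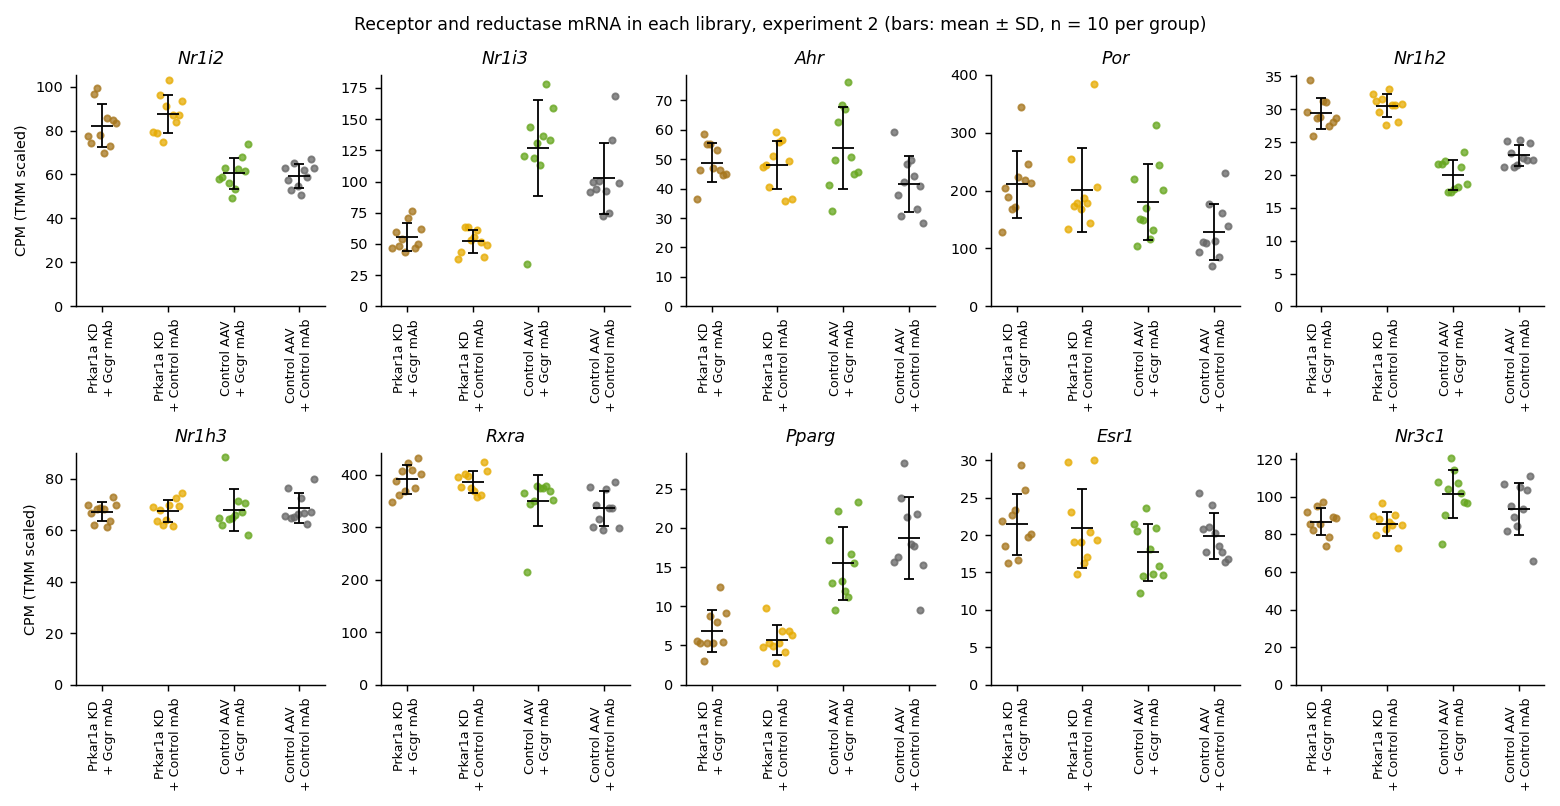
CPM (y axis, from 0) of each gene in every library of experiment 2 by group, with mean ± SD bars (n = 10). The Prkar1a KD groups are high for Nr1i2 and Nr1h2 and low for Nr1i3 and Pparg, and 1 Control AAV + Gcgr mAb library lies at 33.6 CPM for Nr1i3 and 215 CPM for Rxra.

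The balance of the 2 xenobiotic receptors, compared per length of exon, shifted. The log2 ratio of Nr1i2 to Nr1i3 in CPM per kb averaged 1.36 ± 0.34 in Prkar1a KD + Gcgr mAb and 1.55 ± 0.27 in Prkar1a KD + Control mAb (SD, n = 10 each). In Control AAV + Gcgr mAb it averaged -0.19 ± 0.64, and in Control AAV + Control mAb 0.04 ± 0.33. Where 0 lies depends on the exon lengths used, 2.553 kb for Nr1i2 and 4.414 kb for Nr1i3, each over all annotated transcripts. The ratio therefore does not tell which mRNA was more abundant, whereas its differences between groups do not depend on those lengths. The ratio was above 0 in 10 of 10 libraries of each knockdown group. Of 10 libraries each, 1 was above 0 in Control AAV + Gcgr mAb and 5 in Control AAV + Control mAb. That 1 library was Control AAV + Gcgr mAb replicate 2, at 1.60, within the range of the Prkar1a KD libraries. The other 9 of its group averaged -0.39 ± 0.14. In PKA KD the ratio averaged -0.95 ± 0.64, against -0.21 ± 0.32 in Control, with 2 of 10 libraries above 0 in each.

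**Figure D4:**
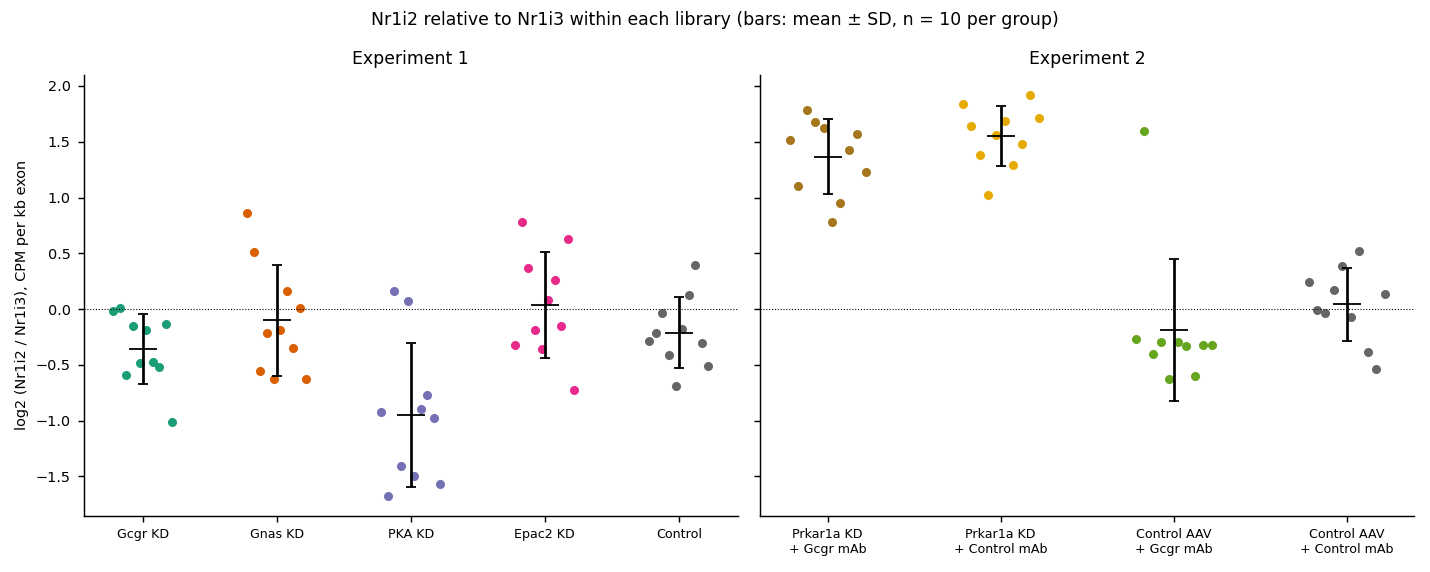
Log2 ratio of Nr1i2 to Nr1i3 (y axis, CPM per kb of exon) in every library by group, with mean ± SD bars (n = 10). A value of 0 means equal CPM per kb, and its place depends on the exon lengths used. Both Prkar1a KD groups lie wholly above 0, 1 Control AAV + Gcgr mAb library lies among them at 1.60, and PKA KD has the lowest mean, -0.95.

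Genes known to be induced through PXR and CAR were low under the Prkar1a knockdown, in which Nr1i2 was high and Nr1i3 low. Of 27 tested genes of that list, 1 rose and 18 fell in Prkar1a KD with Control mAb, with a median log2 change of -1.16 against 0.02 for all genes. Cyp3a11, the main drug-oxidising P450 of mouse liver, had 33.9 ± 27.3 CPM in Prkar1a KD + Control mAb, against 919 ± 323 CPM in Control AAV + Control mAb (SD, n = 10 each), and fell by 4.76 ± 0.54 (edgeR, adjusted p = 1.49e-09). Thrsp, a lipogenic gene, fell by 5.48 ± 0.56 and Cyp2c54, a P450, by 4.42 ± 0.46, whereas Cyp3a13 rose by 0.47 ± 0.087. With Gcgr mAb, 2 rose and 16 fell. Hepatocyte markers moved in the same contrast, 2 higher and 6 lower of 8, and their part in the result was not tested.

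In PKA KD the list was split, 7 higher and 3 lower of 27, with a median of 0.04. Cyp2c54 rose by 1.36 ± 0.42 and Cyp2a5, a coumarin hydroxylase, by 1.13 ± 0.27, while Cyp3a25 fell by 1.0 ± 0.13. Alas1, which makes haem for P450s, fell by 1.13 ± 0.26. Cyp2b10, the standard CAR target, rose by 2.73 ± 0.55 in PKA KD (edgeR, adjusted p = 9.45e-05) and fell by 5.18 ± 0.91 in Prkar1a KD with Control mAb (edgeR, adjusted p = 6.63e-06); its level was low and it was named after its values were seen. In Gnas KD 8 fell and 0 rose, with a median of -0.35, among them Cyp2a5 (log2 change -1.27 ± 0.27), Alas1 (-0.92 ± 0.26) and Cyp2c29 (-0.81 ± 0.22). Markers of other cells moved in the same contrast. Of 10 stellate cell markers 4 rose, and their sum averaged 576 ± 139 CPM in Gnas KD, against 389 ± 83.4 CPM in Control (SD, n = 10 each). Of 5 tested cholangiocyte markers 2 rose in Gnas KD, and 2 rose in PKA KD. Their part in these results, or in the other Gnas KD and PKA KD values, was not tested. The direct contrast of PKA KD with Gnas KD had 13 of the 27 higher and 0 lower, where 18.4% of all genes were higher and 15.6% lower. The other 3 comparisons of a single intervention with its control moved few of the list: 1 higher in Gcgr KD, 1 lower in Epac2 KD, and 2 higher and 1 lower with Gcgr mAb in Control AAV. Cyp2, Cyp3, Gst and Ugt genes belong to families of similar sequence, and their counts are uncertain to the extent that reads were shared.

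**Figure D5:**
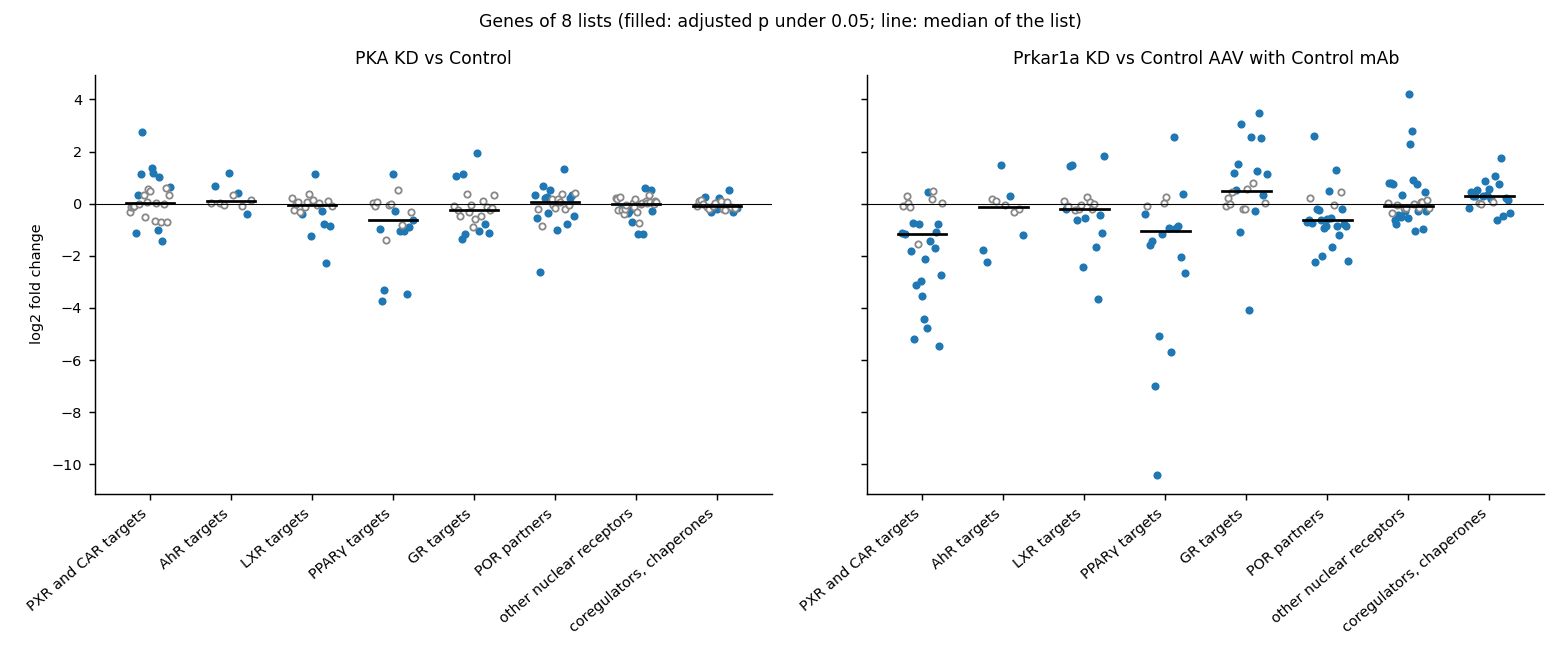
Log2 fold change (y axis) of every tested gene of 8 lists (x axis) in PKA KD against Control and in Prkar1a KD against Control AAV with Control mAb; filled points have an adjusted p under 0.05 and lines are list medians. The PXR and CAR list has its median at 0.04 in PKA KD and at -1.16 in Prkar1a KD, where 18 of 27 genes fell; the 2 lowest points of the PPARγ list, Cidea and Cfd, are genes with almost no counts in Prkar1a KD, and their fitted sizes are not estimates.

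AhR mRNA (Ahr, chr12:35497979-35534989), the sensor of dioxins and plant indoles, was high in the Gnas and PKA knockdowns. It had 37.2, 47.4 and 54.4 CPM in Gnas KD and 29.4, 47.1 and 75.1 CPM in PKA KD, against 24.1, 33.1 and 47.5 CPM in Control. The groups overlapped, with 10 of 10 Gnas KD and 9 of 10 PKA KD libraries above the Control median. Ahr rose by 0.42 ± 0.12 in Gnas KD (edgeR, adjusted p = 0.0163) and by 0.55 ± 0.12 in PKA KD (edgeR, adjusted p = 0.000457). Gcgr KD (log2 change 0.04 ± 0.12) and Epac2 KD (-0.15 ± 0.12) did not pass. PKA KD also exceeded Gcgr KD, by 0.50 ± 0.12, and Epac2 KD, by 0.70 ± 0.12 (edgeR, adjusted p = 0.00137 and 1.08e-05). Those contrasts called 7 and 5 of the 10 genes, against 31.7% and 35.7% of all genes.

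In experiment 2, Ahr was widest in Control AAV + Gcgr mAb, at 32.6, 50.1 and 76.4 CPM, against 28.5, 41.4 and 59.1 CPM in Control AAV + Control mAb. The change was 0.38 ± 0.13 and missed the threshold (edgeR, adjusted p = 0.0587). Without Control AAV + Gcgr mAb replicate 2 it was 0.44 ± 0.12 and passed (edgeR, adjusted p = 0.0167). The 2 Prkar1a KD groups had medians of 46.8 CPM with Gcgr mAb and 48.7 CPM with Control mAb, and neither was called against its control.

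The AhR target list was split. Of 10 tested genes, 3 rose and 1 fell in PKA KD, and 1 rose and 3 fell in Gnas KD. Cyp1a2, a hepatic P450 for caffeine and oestrogens, rose by 0.69 ± 0.25 in PKA KD and fell by 2.22 ± 0.24 in Prkar1a KD with Control mAb. Il33, an alarmin cytokine, rose in Gcgr KD (0.88 ± 0.23), Gnas KD (0.68 ± 0.23), PKA KD (1.18 ± 0.23) and Prkar1a KD with Control mAb (1.5 ± 0.21). Nqo1, a quinone reductase, fell by 0.98 ± 0.26 in Gnas KD. Ugt1a6a, a phenol-conjugating enzyme, fell by 0.36 ± 0.0699 in Gnas KD, by 0.39 ± 0.0699 in Epac2 KD and by 1.21 ± 0.0896 in Prkar1a KD with Control mAb. The last contrast had 2 genes of the list higher and 3 lower.

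Por (chr5:135670040-135735326) varied widely, with a coefficient of variation within groups of 20.6% to 37.7%. In Gnas KD it had 55.1, 91.1 and 167 CPM, against 122, 176 and 272 CPM in Control, and all 10 libraries lay under the Control median. Por fell by 0.85 ± 0.18 (edgeR, adjusted p = 0.00083). Gcgr KD had 78.4, 123 and 198 CPM and a change of -0.44 ± 0.18 that missed the threshold (edgeR, adjusted p = 0.140). PKA KD (0.08 ± 0.18) and Epac2 KD (-0.10 ± 0.18) did not pass, and PKA KD exceeded Gnas KD by 0.93 ± 0.18 (edgeR, adjusted p = 6.97e-05).

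In experiment 2 Prkar1a KD + Gcgr mAb had 128, 209 and 344 CPM of Por and Prkar1a KD + Control mAb 134, 179 and 385 CPM. Control AAV + Gcgr mAb had 104, 160.1 and 314 CPM, and Control AAV + Control mAb 70.2, 112 and 230.2 CPM. All groups overlapped. The rise was 0.71 ± 0.21 with both interventions and 0.64 ± 0.21 with Prkar1a KD alone (edgeR, adjusted p = 0.00414 and 0.00794). With Gcgr mAb alone the change was 0.48 ± 0.21 and did not pass (edgeR, adjusted p = 0.144). Prkar1a KD against Control AAV with Gcgr mAb did not pass either, at 0.23 ± 0.20 (edgeR, adjusted p = 0.363).

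The enzymes that draw electrons from POR, with the cytochrome b5 system beside it, fell in large part in Prkar1a KD with Control mAb, a contrast in which Por itself rose. Of 25 tested, 3 rose and 19 fell, with a median of -0.62. Cyp2e1, the ethanol-oxidising P450, had 1743 ± 254 CPM in Prkar1a KD + Control mAb, against 6977 ± 1140.1 CPM in Control AAV + Control mAb (SD, n = 10 each). Sqle, squalene epoxidase of cholesterol synthesis, fell by 2.20 ± 0.44. Cyp17a1, a steroid hydroxylase, rose by 2.61 ± 0.27 and Cyp7b1, an oxysterol hydroxylase, by 1.29 ± 0.30. Cyp17a1 fell by 3.58 ± 0.30 with Gcgr mAb in Control AAV and fell by 2.03 ± 0.48 in Gnas KD.

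In PKA KD 8 partners of POR rose and 6 fell. Cyb5r3, the reductase of cytochrome b5, fell by 2.61 ± 0.14 in PKA KD, to 127 ± 44.3 CPM against 776 ± 51.0 CPM in Control (SD, n = 10 each). Dhcr7, of cholesterol synthesis, fell by 0.78 ± 0.13 there. Effects of the hairpin other than on its target were not tested for either gene. Cyp39a1, another oxysterol hydroxylase, fell in all 4 knockdowns of experiment 1, with log2 changes of -0.65 ± 0.20 in Gcgr KD, -1.02 ± 0.21 in Gnas KD, -1.0 ± 0.21 in PKA KD and -1.13 ± 0.21 in Epac2 KD. These 4 comparisons share the Control libraries.

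The 2 LXR genes behaved differently from each other. LXRβ (Nr1h2, chr7:44549616-44553968), the broadly expressed form, had 25.9, 28.8 and 34.4 CPM in Prkar1a KD + Gcgr mAb and 27.6, 30.7 and 33.0 CPM in Prkar1a KD + Control mAb. Control AAV + Gcgr mAb had 17.3, 19.9 and 23.5 CPM, and Control AAV + Control mAb 21.2, 22.4 and 25.4 CPM. Neither Prkar1a KD group overlapped Control AAV + Control mAb. The same held for 15.1% of all genes in Prkar1a KD + Control mAb and 10.7% in Prkar1a KD + Gcgr mAb. Prkar1a KD + Gcgr mAb did not overlap Control AAV + Gcgr mAb, as did not 10.4% of all genes in that contrast. Nr1h2 rose by 0.41 ± 0.056 with Control mAb (edgeR, adjusted p = 5.25e-08) and by 0.56 ± 0.056 with Gcgr mAb (edgeR, adjusted p = 4.90e-11).

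Nr1h2 was also the gene called in both tests of receptor loss, Gcgr KD and Gcgr mAb. In Gcgr KD it had 25.8, 30.3 and 36.03 CPM, against 30.9, 36.7 and 45.8 CPM in Control, and fell by 0.24 ± 0.076 with 10 of 10 libraries under the Control median (edgeR, adjusted p = 0.0405). That call was lost without Control replicate 10 (adjusted p = 0.111), without Gcgr KD replicate 8 (adjusted p = 0.0980) and without the low-count filter (adjusted p = 0.0634). With Gcgr mAb in Control AAV it fell by 0.20 ± 0.056 with 9 of 10 libraries under the control median (edgeR, adjusted p = 0.0167). That call was lost when only the 2 groups compared were fitted (adjusted p = 0.0972). PKA KD (0.09 ± 0.075) and Epac2 KD (0.07 ± 0.075) did not pass against Control, and both exceeded Gcgr KD, by 0.33 ± 0.075 and 0.31 ± 0.076 (edgeR, adjusted p = 0.000549 and 0.00235). The contrast of Epac2 KD with Gcgr KD called 2 of the 10 genes, against 20.8% of all genes.

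LXRα (Nr1h3, chr2:91184061-91202829), the form enriched in liver, was among the steadiest, with a coefficient of variation of 5.53% to 12.2% within groups. Its span shares 18 bases with Acp2. It was lower in PKA KD, at 62.9, 68.6 and 83.8 CPM, against 73.4, 85.8 and 99.3 CPM in Control. The groups overlapped, all 10 PKA KD libraries lay under the Control median, and Nr1h3 fell by 0.28 ± 0.066 (edgeR, adjusted p = 0.000842). Gnas KD (-0.01 ± 0.066), Gcgr KD (-0.06 ± 0.066) and Epac2 KD (0.10 ± 0.066) did not pass. In experiment 2 the 4 medians lay between 65.5 and 68.4 CPM. The change in Prkar1a KD with Control mAb was -0.03, with an interval of -0.13 to 0.08.

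Of 20 tested LXR target genes, a list that includes Nr1h3 itself, 3 rose and 8 fell in Prkar1a KD with Control mAb. Abcg5 and Abcg8, which together export sterols into bile, had 198 ± 52.7 and 222 ± 51.9 CPM in Prkar1a KD + Control mAb, against 73.0 ± 13.3 and 80.0 ± 19.2 CPM in Control AAV + Control mAb, and rose by 1.44 ± 0.14 and 1.47 ± 0.16. Ttc39b rose by 1.82 ± 0.16. Scd1 and Fasn, enzymes of fatty acid synthesis, fell by 3.67 ± 0.48 and 2.41 ± 0.28, and Pltp, a phospholipid transfer protein, by 1.66 ± 0.18.

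In PKA KD 1 LXR target rose and 6 fell. Srebf1, the lipogenic regulator, fell by 0.87 ± 0.115, Fasn by 1.25 ± 0.34 and Scd1 by 2.28 ± 0.68. Lpl, lipoprotein lipase, rose by 1.12 ± 0.17, and it also rose in Gnas KD (1.06 ± 0.17) and Gcgr KD (0.59 ± 0.17). Cyp7a1, the rate-limiting enzyme of bile acid synthesis, rose by 1.21 ± 0.25 with Gcgr mAb in Control AAV and was the single LXR target called there.

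RXRα (Rxra, chr2:27676445-27763319) was the most abundant of the 10 per length, with group means of 61.5 to 84.8 CPM per kb. It had 349, 394 and 431 CPM in Prkar1a KD + Gcgr mAb and 358, 386 and 424 CPM in Prkar1a KD + Control mAb. Control AAV + Gcgr mAb had 215, 368 and 379 CPM, and Control AAV + Control mAb 294, 337 and 386 CPM. The groups overlapped. Rxra rose by 0.20 ± 0.069 in Prkar1a KD with Control mAb (edgeR, adjusted p = 0.0128), and its change with Gcgr mAb was 0.16 ± 0.069 (edgeR, adjusted p = 0.0528). No knockdown of experiment 1 moved it past the threshold; the largest difference was -0.26 ± 0.12 in Gcgr KD (edgeR, adjusted p = 0.180). The lowest value, 215 CPM, belongs to Control AAV + Gcgr mAb replicate 2, and the other 9 of its group had 344 to 379 CPM. Without it, the change of Rxra in Prkar1a KD with Gcgr mAb was 0.09 ± 0.052 (edgeR, adjusted p = 0.153).

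PPARγ mRNA (Pparg, chr6:115360879-115490404) showed the largest change of the 10. PPARγ drives lipid storage in adipocytes and is raised in fatty liver. It had 3.03, 5.49 and 12.4 CPM in Prkar1a KD + Gcgr mAb and 2.79, 5.29 and 9.81 CPM in Prkar1a KD + Control mAb. Control AAV + Gcgr mAb had 9.51, 14.4 and 23.4 CPM, and Control AAV + Control mAb 9.52, 17.8 and 28.3 CPM. The groups just overlapped with Control mAb, the highest knockdown library at 9.81 CPM and the lowest control library at 9.52 CPM. The overlap was wider with Gcgr mAb, at 12.4 and 9.51 CPM. Pparg fell by 1.71 ± 0.21 with Control mAb, a 3.27-fold lower level (edgeR, adjusted p = 5.83e-09), and by 1.16 ± 0.21 with Gcgr mAb (edgeR, adjusted p = 9.50e-06). The difference of those effects, the interaction, was 0.55 ± 0.29 and did not pass (edgeR, adjusted p = 0.277).

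In experiment 1 Pparg averaged 22.3 ± 2.24 CPM in Control with a coefficient of variation of 10.04%, and spread further in every knockdown, up to 45.0% in Gnas KD (7.78 to 31.7 CPM). Its changes, -0.34 to -0.18, were all negative and none passed (edgeR, lowest adjusted p = 0.329). Adipocyte markers were scarce: 5 markers summed to 4.31 to 43.1 CPM over all libraries, and 1 of them, Fabp4, passed the low-count filter. Fabp4 fell by 1.18 ± 0.23 in Prkar1a KD with Control mAb, where the marker sum had a median of 5.91 CPM, against 14.4 CPM in Control AAV + Control mAb. The part of adipocytes in the Pparg change was not tested.

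Most PPARγ target genes were low in Prkar1a KD, where 13 of 18 fell and 2 rose with Control mAb. The median was -1.06. Cidea, a lipid droplet protein, had 0.0193 ± 0.0419 CPM in Prkar1a KD + Control mAb, against 34.3 ± 19.0 CPM in Control AAV + Control mAb (SD, n = 10 each), and Mogat1, of triglyceride synthesis, 0.185 ± 0.146 CPM against 10.03 ± 5.06 CPM in Control AAV + Control mAb. Pck1, the gluconeogenic enzyme that is on the PPARγ and the GR lists, rose by 2.55 ± 0.19. In PKA KD 9 of 19 fell and 1 rose, with a median of -0.62, although Pparg itself was not called. Plin4, which coats lipid droplets, had 8.17 ± 6.41 CPM in PKA KD, against 91.6 ± 33.9 CPM in Control, and fell by 3.47 ± 0.47. With Gcgr mAb in Control AAV 7 of 18 fell and 1 rose; Cidea fell by 2.58 ± 0.38 and Cidec, its relative, by 1.46 ± 0.48.

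ERα mRNA (Esr1, chr10:4611989-5005633), the oestrogen receptor, was the least abundant of the 10 per length, at group means of 0.555 to 1.57 CPM per kb. That rank depends on the exon length used, 13.661 kb over all annotated transcripts. In CPM, Pparg lay lower than Esr1 in both Prkar1a KD groups, at medians of 5.49 CPM with Gcgr mAb and 5.29 CPM with Control mAb. In PKA KD Esr1 had 5.79, 7.34 and 10.1 CPM and in Gnas KD 6.39, 8.75 and 13.1 CPM, against 10.6, 13.1 and 15.2 CPM in Control. PKA KD did not overlap Control, as did not 5.34% of all genes in that contrast, and Gnas KD did overlap it. Esr1 fell by 0.76 ± 0.16 in PKA KD (edgeR, adjusted p = 0.000168) and by 0.52 ± 0.16 in Gnas KD (edgeR, adjusted p = 0.0195). Gcgr KD had 9.14, 11.96 and 18.9 CPM and Epac2 KD 6.85, 9.62 and 22.1 CPM, and neither passed. In Prkar1a KD Esr1 had medians of 21.0 CPM with Gcgr mAb and 19.3 CPM with Control mAb, against 17.0 CPM in Control AAV + Gcgr mAb and 19.4 CPM in Control AAV + Control mAb. Its change with Gcgr mAb was 0.28 ± 0.13 and missed the threshold (edgeR, adjusted p = 0.0589).

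GR mRNA (Nr3c1, on chromosome 18), the receptor for corticosterone, fell in Epac2 KD, where it was the single gene of the 10 called. Epac2 KD had 35.3, 36.7 and 44.4 CPM, against 53.1, 59.9 and 68.5 CPM in Control. The groups did not overlap, as did not 0.575% of all genes in that contrast. Nr3c1 fell by 0.69 ± 0.055, a 1.61-fold lower level (edgeR, adjusted p = 1.04e-13). Whether loss of Epac2 or another effect of its hairpin gave this fall was not tested. PKA KD had 43.9, 49.8 and 55.5 CPM and fell by 0.25 ± 0.055 (edgeR, adjusted p = 0.000225). Epac2 KD lay below the other knockdowns too: PKA KD exceeded it by 0.43 ± 0.055 and Gnas KD by 0.76 ± 0.055, a contrast that called 4 of the 10 genes, against 24.8% of all genes. Gcgr KD (0.04 ± 0.055) and Gnas KD (0.07 ± 0.055) did not pass.

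In experiment 2 Nr3c1 had medians of 87.2 CPM in Prkar1a KD + Gcgr mAb, 85.9 CPM in Prkar1a KD + Control mAb, 103 CPM in Control AAV + Gcgr mAb and 94.5 CPM in Control AAV + Control mAb. It fell by 0.23 ± 0.075 in Prkar1a KD with Gcgr mAb (edgeR, adjusted p = 0.0103). With Control mAb the change was -0.13 ± 0.075 (edgeR, adjusted p = 0.145). In the contrast with Gcgr mAb, 7 of 10 Kupffer cell markers, 8 of 9 endothelial markers and 6 of 10 stellate cell markers fell. Their part in the value of Nr3c1, or in those of Nr1i2, Nr1i3, Nr1h2 and Pparg in that contrast, was not tested.

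Few GR target genes moved in Epac2 KD, 1 higher and 1 lower of 22. Fkbp5, the immunophilin that glucocorticoids induce, had 13.8 ± 2.62 CPM in Epac2 KD, against 21.8 ± 6.32 CPM in Control (SD, n = 10 each), and fell by 0.67 ± 0.12. Cdkn1a, a cell cycle inhibitor, rose by 1.02 ± 0.31. In PKA KD Fkbp5 rose by 1.13 ± 0.12, while Nr3c1 fell, and Tat, of tyrosine breakdown, fell by 1.14 ± 0.21. In all, 3 rose and 5 fell there. In Prkar1a KD with Control mAb 10 of 22 rose and 3 fell, with a median of 0.50. Sgk1, a kinase, rose by 3.47 ± 0.18, Igfbp1, which binds insulin-like growth factors, by 3.04 ± 0.39, and Pck1 by 2.55 ± 0.19. With Gcgr mAb in Control AAV 4 fell and 0 rose, among them Sds, serine dehydratase (log2 change -1.49 ± 0.20), Pck1 (-1.27 ± 0.18) and Tat (-0.80 ± 0.12). Nr3c1 itself was not called there (log2 change 0.12, edgeR adjusted p = 0.344) or in Prkar1a KD with Control mAb. The part of GR in these target changes was not tested.

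Addition of Gcgr mAb to the Prkar1a knockdown gave no call among the 10 genes. The contrast called 0 of 12847 genes with edgeR, or 0.0%, while 846 genes had an unadjusted p under 0.05, and DESeq2 and limma-voom also called 0. The changes of the 10 ran from -0.09 ± 0.069 for Nr1i2 to 0.27 ± 0.21 for Pparg. The interaction likewise called 0 of the 10, against 4.08% of all genes. The 2 ways of removing Gcgr signalling gave, side by side, -0.24 ± 0.076 in Gcgr KD and -0.20 ± 0.056 with Gcgr mAb for Nr1h2. For Nr1i2 they gave -0.19 ± 0.068 and 0.02 ± 0.069, for Por -0.44 ± 0.18 and 0.48 ± 0.21, and for Ahr 0.04 ± 0.12 and 0.38 ± 0.13. They belong to separate experiments and their difference was not tested. Gnas KD, 1 step below the receptor, was called against Gcgr KD in 0 of the 10, against 5.84% of all genes; the largest difference among the 10 was -0.43 ± 0.16 for Esr1 (edgeR, adjusted p = 0.111).

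Among 32 other tested nuclear receptors, 10 rose and 11 fell in Prkar1a KD with Control mAb. Nr4a1, an orphan receptor that cAMP induces, had 35.9 ± 7.34 CPM in Prkar1a KD + Control mAb, against 1.87 ± 0.865 CPM in Control AAV + Control mAb (SD, n = 10 each), and Nr4a2, its relative, rose by 2.30 ± 0.23. Ppara, the receptor of fatty acid oxidation, fell by 1.06 ± 0.12 there and by 1.16 ± 0.12 in PKA KD, where 2 rose and 8 fell. Of 21 tested coregulators and chaperones, 14 rose and 4 fell in Prkar1a KD with Control mAb, against 3 and 4 in PKA KD. Ppargc1a, the coactivator PGC-1α, rose by 1.76 ± 0.17 in Prkar1a KD and by 0.51 ± 0.14 in PKA KD. Nr0b2, the corepressor SHP, fell by 0.61 ± 0.17 in Prkar1a KD. Arnt, the partner of AhR, rose by 0.22 ± 0.058 in Gcgr KD, 0.19 ± 0.058 in Gnas KD and 0.27 ± 0.0885 with Gcgr mAb in Control AAV.

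Within groups, some of the 10 varied together from library to library. About the group means, Nr1i3 correlated with Rxra at r = 0.49 over 50 libraries of experiment 1 and 0.70 over 40 of experiment 2, and with Por at 0.60 and 0.53. Nr1h3 and Pparg ran opposite, at -0.61 and -0.32. Without Control AAV + Gcgr mAb replicate 2, which was low for both Nr1i3 and Rxra, their r in experiment 2 was 0.28 over 39 libraries, and that of Nr1i3 and Por was 0.50. Rxra also varied with Por, at 0.46 and 0.45, and with Nr3c1, at 0.37 and 0.65. Without that replicate these 2 pairs had 0.38 and 0.54 in experiment 2. Some other pairs did not repeat between the experiments. Rxra and Pparg had -0.66 in experiment 1 and -0.02 in experiment 2. Nr1h2 and Rxra had 0.62 and -0.08, and Nr1i2 and Rxra -0.50 and 0.02. The points share library, depth and RNA quality, and the values are descriptions. By mean Pearson r over both experiments, among 12728 genes, the genes most like Nr1i2 were As3mt (0.83), Gpat4 (0.82) and Baiap2l1 (0.80), and those most like Nr1i3 were Hlf (0.83), Cyp2c37 (0.83) and Sord (0.81). Pparg had Cidec (0.88), Osbpl3 (0.87) and Cd36 (0.85), and Esr1 had the weakest likeness, with Fndc3b (0.56), Slc3a1 (0.55) and Hpx (0.54). The remaining leaders were Aldh4a1 for Nr1h2 (0.80), Urah for Nr1h3 (0.79), Ppp6r1 for Rxra (0.75), Erap1 for Ahr (0.67), Myo6 for Nr3c1 (0.83) and Upp2 for Por (0.73). These values span the groups, and so hold shared differences between groups. Their likeness within groups differed. About the group means, As3mt had r = 0.51 with Nr1i2 in experiment 1 and 0.03 in experiment 2. Aldh4a1 had 0.72 and -0.11 with Nr1h2, whereas Hlf had 0.76 and 0.78 with Nr1i3.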

How the data were processed

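Liver polyA RNA of 90 libraries was sequenced from strand-specific libraries, per the labels' protocols. Base calls were converted with bcl2fastq 2.17 and reads checked with FastQC, on the builds GRCm38 and mm10, per the submitters' processing notes. The authors deposited expected counts per Entrez gene and library. No source names the aligner or counter. Of the 24475 genes, 24375 had a symbol. Counts (8.69% and 8.55% fractional) were rounded, and 0 columns were left unused.

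Each experiment was fitted on its own over all its groups with edgeR 4.0.16 in R 4.3.3 (filterByExpr, TMM, quasi-likelihood F test), with 13574 and 12847 genes tested, 45 and 36 residual degrees of freedom and Benjamini-Hochberg adjustment over all genes. SE is the log2 change divided by the square root of F. CPM per kb used the exon union of GENCODE M21. Correlations used log2 CPM with a prior count of 2. The procedure was tested on simulated data. Libraries of a group differed by more than counting noise (lowest chi-squared per degree of freedom 14.1 and 7.52).

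The 10 genes and all lists were chosen with earlier results of these data known. Named were the 10 genes, the targeted genes, the 3 genes most like each of the 10 and, per list and contrast, up to 3 called genes per direction with the largest change and an average log2 CPM of at least 1. Alternatives were DESeq2 1.42.0, limma-voom 3.58.1, RLE scaling, no filter, only the groups compared, and the replicate number as a block.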

Additional observations from a re-analysis of the deposited data

Results flagged for a closer look

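In 10 of 90 sets of 10 libraries, 1 for each gene and group, the highest or lowest library lay further from the others than Dixon's critical value of 0.466 allows; chance flags about 1 in 20 groups. Control AAV + Gcgr mAb replicate 2 was low for both Nr1i3 (33.6 CPM) and Rxra (215 CPM), and replicate 3 of that group was high for Nr1h3 (88.6 CPM). In Gcgr KD, replicate 10 was high for Nr1i3 (183 CPM), replicate 5 for Nr1h3 (99.6 CPM) and replicate 8 for Esr1 (18.9 CPM). In Epac2 KD, replicate 8 was the highest for Nr3c1 (44.4 CPM), still under every Control library, and replicate 10 the highest for Por (248 CPM). Por was also high in Prkar1a KD + Control mAb replicate 9 (385 CPM), and Nr1h2 in Control replicate 10 (45.8 CPM). No cause of these values was tested.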

How the results depend on the processing

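No direction of a called change reversed under any alternative, and RLE scaling changed no call among the 10 genes. Most changes of calls were in the contrasts of receptor loss. In Gcgr KD the count of the 10 genes called, 1, became 0 without the low-count filter (Nr1h2, adjusted p = 0.0634) and 2 with only the groups compared (Nr1i2, adjusted p = 0.0256). With Gcgr mAb in Control AAV the count of 1 became 2 with DESeq2 (Ahr, adjusted p = 0.0390) and 0 with only the groups compared (Nr1h2, adjusted p = 0.0972), where the genes called numbered 608 in place of 1052 (241 higher and 367 lower). Leaving out libraries, a choice made after the data were seen, gave 0 to 1 of the 10 in Gcgr KD and 1 to 3 with Gcgr mAb in Control AAV. In Prkar1a KD with Gcgr mAb, limma-voom also called Rxra (adjusted p = 0.0422) and Esr1 (0.0485). For the interaction, 172 genes called lower became 106 without the filter and 265 with DESeq2; only the groups compared was not run, since it uses all groups. The cause of these moves was not tested.

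The labels do not say what libraries of the same number share. Their deviations from group means correlated at 0.0446 and 0.0377 on average, against -0.00225 and -0.000964 for libraries of other numbers. The pairs of the same number ran from -0.62 to 0.68 and from -0.51 to 0.63, with 50 of 100 and 23 of 60 above 0.1. These averages cannot exclude a shared batch. The replicate block gave 2 of the 10 genes with Gcgr mAb in Control AAV (Ahr, adjusted p = 0.0243), added Ahr with both interventions (0.0449), and added Rxra (0.0367) and Esr1 (0.0279) in Prkar1a KD with Gcgr mAb. The correlation of Nr1i3 with Rxra in experiment 2, 0.70, was 0.28 without Control AAV + Gcgr mAb replicate 2. Depth was lower in experiment 2, and its part in the precision was not tested.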
